A study of Mus musculus with 6 samples.

Results

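The 9 genes described here encode the D-type cyclins (Ccnd1, Ccnd2, Ccnd3), their kinases (Cdk4, Cdk6) and proteins that restrain those kinases (Cdkn1b, Cdkn2a, Cdkn2b, Cdkn2c). They were taken by symbol from the 30768 genes of the deposited table, 1 row each, and all 9 had counts high enough to be tested among 18103 genes. Messenger RNA was sequenced in 3 libraries of bEnd.3 cells labelled as overexpressing miR-423-5p and in 3 control libraries of the same cells, all from poly(A)-selected RNA in strand-marked paired-end preparations. The sample titles name a mimic in both groups, a short synthetic RNA that acts as a mature microRNA. bEnd.3 is 1 continuous mouse brain endothelial line, made with the polyomavirus middle T antigen, an oncoprotein that drives growth signalling. Both groups are of this line, and whether that signalling was equal between them was not tested. No dose, no time after transfection and no culture of origin is named for any library in the labels. The p-values below therefore measure the spread between these libraries alone, which may be technical.

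D-type cyclins are made when a cell receives growth signals. They bind CDK4 or CDK6, and the active kinase phosphorylates the retinoblastoma protein and its relatives, which frees E2F factors to switch on cyclin E and the genes of DNA synthesis. INK4 proteins (products of Cdkn2a, Cdkn2b and Cdkn2c) bind CDK4 and CDK6 and keep the cyclin off, whereas p27, the product of Cdkn1b, blocks cyclin E with CDK2 and also rides on cyclin D complexes, which it helps to assemble. In endothelium this switch sets whether a vessel cell divides or stays quiescent. Cdkn2a also encodes ARF, read from another first exon in another frame, which stabilises p53; counts per gene cannot separate INK4A from ARF.

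The mature microRNA and its matches in the members' transcripts are shown first, because a microRNA can lower messages that pair with its seed. The seed of miR-423-5p (bases 2 to 8 of 23, in capitals; RefSeq, GRCm38.p6, chr11:77078122-77078144, minus strand) reads as follows.
mmu-miR-423-5p: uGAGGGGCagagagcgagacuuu
The motifs searched on the transcript strand were GCCCCTC, the match to bases 2 to 8, its 8mer GCCCCTCA with an A opposite base 1, and CCCCTCA, the match to bases 2 to 7 with that A. Every 8mer also holds both shorter motifs. With the longest 3' UTR taken per gene (GENCODE M21, GRCm38), 2 of the 9 members held GCCCCTC and 4 held GCCCCTC or CCCCTCA. Among 20872 genes, 11.1% held GCCCCTC, 3.15% the 8mer and 10.5% CCCCTCA. The share of these genes that held GCCCCTC or CCCCTCA was not computed, so the 4 members have no share to stand beside. Cdk6 held the only 8mer of the 9 genes, in a 3' UTR of 10217 bases, and Ccnd2 held GCCCCTC in one of 5173 bases; long 3' UTRs have more room for such matches. Matches stand in capitals between the bases on either side.
Cdk6 8mer, chr5:3527408-3527437, plus strand: tctcaggttaaGCCCCTCAgtgaaaggcca
Cdk6 bases 2 to 8, chr5:3524304-3524332, plus strand: cctcctattcaGCCCCTCtttaaagacga
Ccnd2 bases 2 to 8, chr6:127129248-127129276, minus strand: cttcctcctttGCCCCTCcccttcctgac
Ccnd3 bases 2 to 7 with A, chr17:47598876-47598904, plus strand: ggctctccttcCCCCTCAcaaagcccaag
Cdk4 bases 2 to 7 with A, chr10:127067668-127067696, plus strand: gaggcctacctCCCCTCAtccataatcgt
The 3' UTRs of the other 5 members (Ccnd1, Cdkn1b, Cdkn2a, Cdkn2b and Cdkn2c) held none of these motifs. The lines above do not show every match: CCCCTCA alone also stood in the 3' UTRs of Ccnd2 and Cdk6, in the coding sequence of Ccnd2 and in the 5' UTR of Cdkn1b, among others. A match is a description of the sequence and not a shown binding site.

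Total counts ran from 63217696 to 78456344 in the miR-423-5p libraries and from 64561989 to 69250575 in the control libraries. The members had between 480 and 156840 counts in a library and thus counting errors of 4.56% down to 0.253%. Of 12 endothelial markers, 9 rose and none fell (10 higher and 0 lower at an unadjusted p under 0.05), with a summed level of 6069 to 6359 CPM in miR-423-5p libraries and 3364 to 3643 CPM in controls; Cldn5, a tight junction gene of brain endothelium, stood at or under 0.660 CPM in every library. CPM are counts scaled to the library size with TMM, which sets most genes level between libraries. Of 10 pericyte and fibroblast markers, 5 fell and none rose (7 and 0 at an unadjusted p under 0.05), with 23.0 to 43.5 CPM summed in miR-423-5p libraries and 85.1 to 186 CPM in controls. Control 3 stood apart: its neuron markers summed to 70.4 CPM, against at most 1.16 CPM in any other library, and the macrophage gene Adgre1 was at 25.1 CPM there, with no count in any miR-423-5p library and at or under 0.0590 CPM in controls 1 and 2. The 7 macrophage markers together did not follow Adgre1. They summed to 707 to 987 CPM in miR-423-5p libraries. In control libraries 1, 2 and 3 the sum was 595, 578 and 826 CPM. Of the 3 tested, 1 was higher and 2 lower at an unadjusted p under 0.05. Over the tested macrophage, neuron, astrocyte and epithelial markers (3 of 7, 2 of 6, 4 of 6 and 2 of 5), edgeR called 1, the astrocyte marker Sox9, which fell, with no count in any miR-423-5p library and 1.14 to 1.72 CPM in controls. In bulk RNA, fewer cells of a type and less RNA per cell cannot be told apart, and the part of these differences in the results below was not tested.

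The design sets miR-423-5p cells against control cells to see which endothelial messages the microRNA alters. Ccnd1, Ccnd3 and Cdkn2b rose, Cdkn2c fell, and Ccnd2, Cdk4, Cdk6, Cdkn1b and Cdkn2a were not called at a Benjamini-Hochberg adjusted p under 0.05 in edgeR's quasi-likelihood test over all tested genes. Thus 3 of the 9 members rose and 1 fell, where 9.09% of all tested genes rose and 7.21% fell. In CPM the groups did not overlap for those same 4 members, 3 higher and 1 lower, where 38.4% of all tested genes did not overlap, 18.8% higher and 19.6% lower. The members' median log2 fold change was 0.08, beside -0.02 over all tested genes. Ccnd1 and Cdkn2b were called whichever library was left out, whereas the calls of Ccnd3 and Cdkn2c were each lost when any library other than miR-423-5p 2 or control 3 was left out. Leaving out control 3 kept the same 4 calls, and leaving out miR-423-5p 2 added Cdkn1b.

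**Figure D1:**
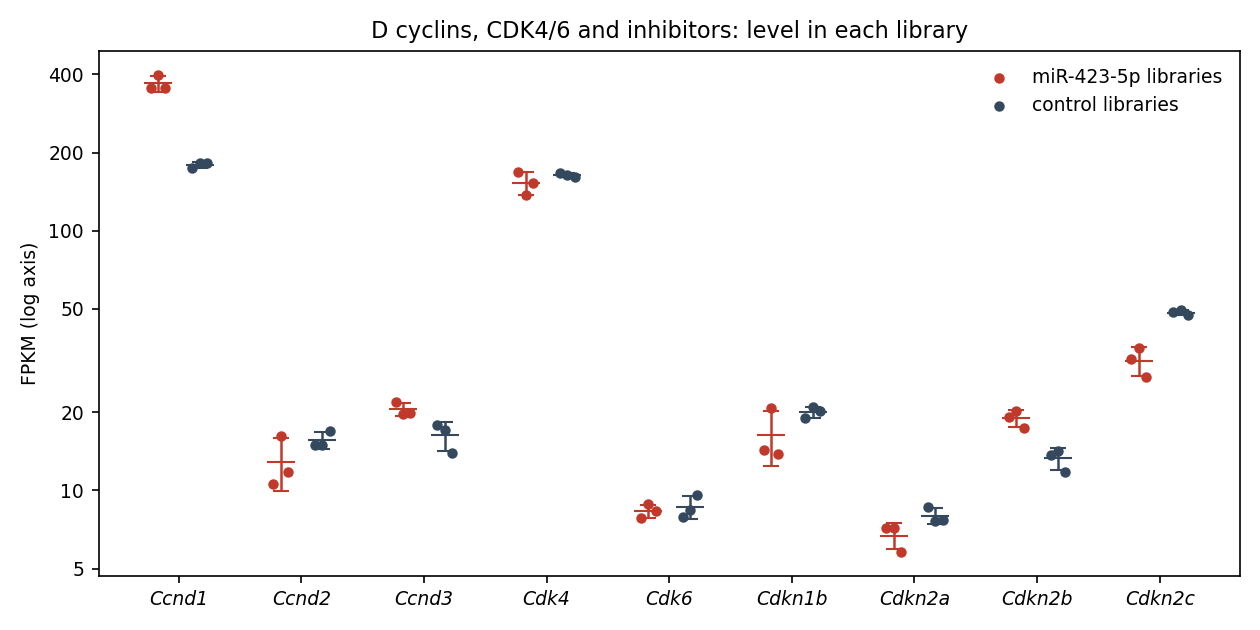
FPKM of the 9 genes (log axis) in each miR-423-5p library and each control library; points are libraries, bars the mean and its SD (n = 3 per group). Ccnd1 lies between 354 and 399 FPKM in miR-423-5p libraries, above its 174 to 183 FPKM in controls, and Cdk4 is the only other gene above 100 FPKM.

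Levels were compared between genes with the deposited FPKM, counts scaled to gene length and library size. In miR-423-5p cells the order from high to low was Ccnd1 (369 ± 25.8 FPKM), Cdk4 (153 ± 15.8), Cdkn2c (31.6 ± 4.07), Ccnd3 (20.5 ± 1.2), Cdkn2b (19.0 ± 1.45), Cdkn1b (16.3 ± 3.93), Ccnd2 (12.9 ± 2.97), Cdk6 (8.33 ± 0.488) and Cdkn2a (6.70 ± 0.780; SD, n = 3). In control cells it was Ccnd1 (180 ± 4.82 FPKM), Cdk4 (164 ± 2.84), Cdkn2c (48.4 ± 1.24), Cdkn1b (19.99 ± 0.968), Ccnd3 (16.3 ± 2.08), Ccnd2 (15.6 ± 1.13), Cdkn2b (13.3 ± 1.28), Cdk6 (8.62 ± 0.853) and Cdkn2a (7.98 ± 0.584; SD, n = 3). The ranges of neighbours overlapped from Ccnd3 down to Ccnd2 in miR-423-5p cells, and for Ccnd3 with Ccnd2 and Cdk6 with Cdkn2a in control cells; the other neighbours were apart. For all 9 genes the count, the FPKM and the total of control 1 imply a length 1.09 times the union of annotated exons. That union counts retained introns, and it is 8775 bases for Ccnd3, against 1999 bases for the coding transcript used for its 3' UTR. On the length of that transcript in place of the union, a reading chosen after seeing the data, Ccnd3 stood at 103 CPM per kilobase in miR-423-5p cells and 72.5 in control cells. On the same scale Cdkn2c stood at 87.7 in miR-423-5p cells and 119 in control cells. The top of the control order also turned, with Cdk4 at 262.5 and Ccnd1 at 228.7 CPM per kilobase. In miR-423-5p cells Ccnd1 stayed first, at 532.8 against 277.5 for Cdk4. The order of these genes thus depends on the length used.

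Ccnd1 encodes cyclin D1, the D cyclin most tied to growth signals, and lies at chr7:144929931-144939925 on the minus strand (GRCm38, as in the table). It had 1915, 2070 and 1993 CPM in miR-423-5p libraries 1, 2 and 3, against 849, 876 and 841 CPM in control libraries 1, 2 and 3. All miR-423-5p libraries lay far above all controls, and within a group the libraries were close. Ccnd1 rose 2.33-fold (log2 fold change 1.22 ± 0.076, SE; edgeR adjusted p = 0.000558, higher in 3 of 3 libraries), with a 95% interval of 2.06-fold to 2.63-fold. With library totals as the scale, the log2 fold change was 1.06.

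Ccnd3 encodes cyclin D3, the D cyclin best known in lymphocytes and muscle, at chr17:47505051-47599689 on the plus strand. It had 220, 191 and 209 CPM in miR-423-5p libraries 1, 2 and 3, against 163, 152 and 120 CPM in control libraries 1, 2 and 3. The groups did not overlap, and control 3 was the lowest library. Ccnd3 rose 1.43-fold (log2 fold change 0.51 ± 0.12, SE; edgeR adjusted p = 0.0302). Its 3' UTR holds the match to bases 2 to 7 shown above, and whether that match acts in these cells was not tested. The call was lost with library totals as the scale (log2 fold change 0.35, edgeR adjusted p = 0.0738), and without miR-423-5p 1, miR-423-5p 3, control 1 or control 2 the edgeR adjusted p was 0.0995, 0.0914, 0.0525 and 0.0889 in that order. Bysl on the opposite strand overlaps 359 bases of Ccnd3 and had 53.3% as many counts; it was itself not called (log2 fold change -0.08, edgeR adjusted p = 0.595).

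Ccnd2 encodes cyclin D2, at chr6:127125162-127152193 on the minus strand. It had 115, 168 and 132 CPM in miR-423-5p libraries 1, 2 and 3, against 145, 144 and 155 CPM in control libraries 1, 2 and 3. The groups overlapped: miR-423-5p 2 was the highest of all 6 libraries and the other two of its group the lowest. Ccnd2, one of the members with GCCCCTC in the 3' UTR, was not called (log2 fold change -0.10 ± 0.14, SE; edgeR adjusted p = 0.662), and the 95% interval ran from 0.751-fold to 1.16-fold. Without miR-423-5p 2 the log2 fold change was -0.24 (edgeR adjusted p = 0.0707), and without miR-423-5p 1 it was 0.02.

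Summed over the D cyclins, the level was 403 ± 28.0 FPKM in miR-423-5p cells and 212 ± 4.05 FPKM in control cells (SD, n = 3). These FPKM carry no TMM scaling and follow library totals only roughly. Relative to control 1, the factor from counts to FPKM was 1.019 in control 3, where the total was 1.067. In miR-423-5p 3 the factor was 1.005 and the total 0.979. Ccnd1 made up 91.6%, 91.7% and 91.8% of that sum in miR-423-5p libraries 1, 2 and 3, against 84.2%, 85.1% and 85.6% in control libraries 1, 2 and 3. Ccnd2 made up 3.18% ± 0.506 in miR-423-5p cells and 7.37% ± 0.484 in control cells, and Ccnd3 5.12% ± 0.564 and 7.70% ± 1.08 (SD, n = 3). These shares also depend on the level of Ccnd1: Ccnd3 itself was called higher, and Ccnd2 was not called. With the shorter transcript lengths, Ccnd1 made up 81.0% ± 0.998 in miR-423-5p cells and 70.5% ± 2.1 in control cells, and Ccnd3 15.7% ± 1.56 and 22.3% ± 2.66. Under both lengths the Ccnd1 share was higher in every miR-423-5p library than in any control library. A gene's length is the same in all libraries, so the second length is no separate check of that difference.

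**Figure D2:**
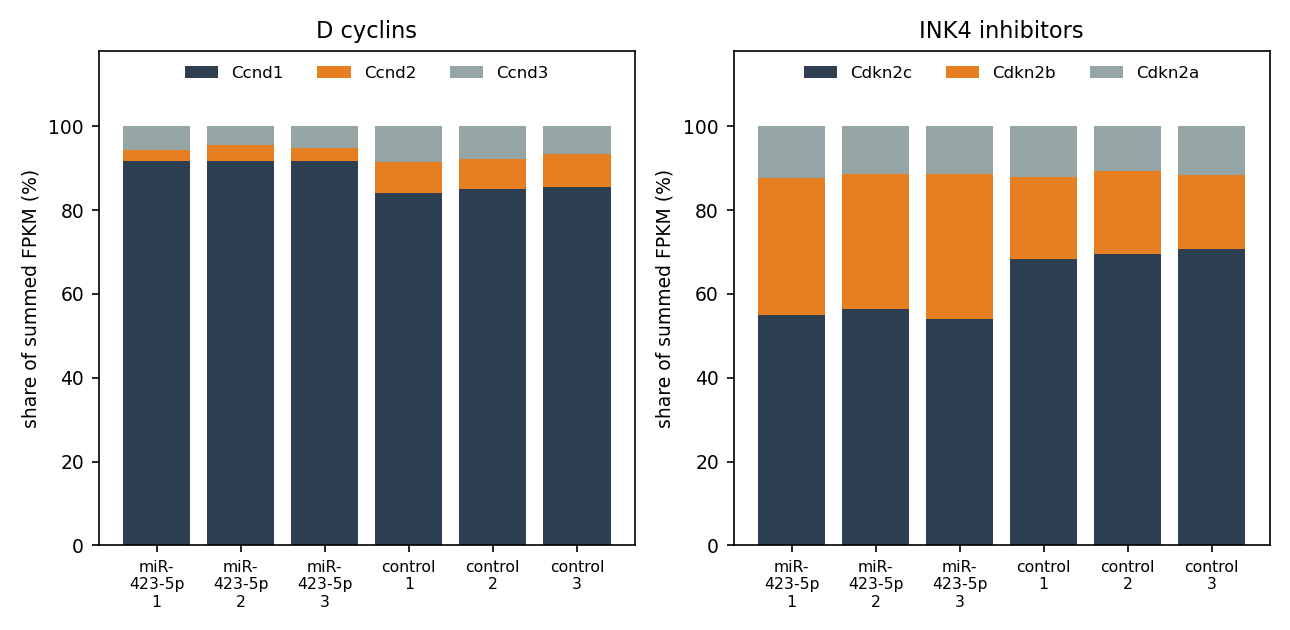
Share of the summed FPKM (percent) that each D cyclin and each INK4 gene takes in each library, miR-423-5p libraries left of control libraries. Ccnd1 takes 91.6% to 91.8% of the D cyclins in miR-423-5p libraries and 84.2% to 85.6% in controls, and Cdkn2b takes 32.3% to 34.5% of the INK4 genes in miR-423-5p libraries and 17.7% to 19.9% in controls.

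Cdk4 encodes the main partner kinase of D cyclins in many cell types, at chr10:127063534-127067920 on the plus strand. It had 627, 489 and 594 CPM in miR-423-5p libraries 1, 2 and 3, against 562, 541 and 513 CPM in control libraries 1, 2 and 3. The control values lay within the range of the miR-423-5p libraries, among which library 2 was lowest. Cdk4 was not called (log2 fold change 0.08 ± 0.11, SE; edgeR adjusted p = 0.645), with a 95% interval of 0.891-fold to 1.25-fold, and with library totals as the scale its log2 fold change was -0.08. Tspan31 on the opposite strand overlaps 641 bases of Cdk4 and had 17.95% as many counts (log2 fold change 0.21, edgeR adjusted p = 0.0780).

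Cdk6 encodes the other D cyclin kinase, listed at chr5:3341485-3473180 on the plus strand. It had 126, 136 and 139 CPM in miR-423-5p libraries 1, 2 and 3, against 114, 120 and 131 CPM in control libraries 1, 2 and 3. The groups overlapped through control 3 and miR-423-5p 1. Cdk6, which holds the 8mer, was not called (log2 fold change 0.13 ± 0.081, SE; edgeR adjusted p = 0.290), with a 95% interval of 0.964-fold to 1.25-fold. With library totals as the scale the log2 fold change was -0.02. The table ends the gene at 3473180 but lists the long transcript that runs to 3531008 in GENCODE M21, where the seed matches lie. Cdk6 made up 5.23% ± 0.805 of the summed Cdk4 and Cdk6 FPKM in miR-423-5p cells and 5.00% ± 0.544 in control cells (SD, n = 3).

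The Cdk4 promoter is shown because Cdk4 is a known target of MYC, which binds the E-box CACGTG, and because Myc and its relative Mycn were called in these cells. The window of 250 bases before to 50 after the start (RefSeq, GRCm38.p6, chr10:127063285-127063584, plus strand) holds 4 E-boxes, in capitals, where 7.15% of 32851 promoter windows of that length hold any; the motif is its own reverse complement. Searched on both strands as well were the cAMP response element TGACGTCA, AP-1 TGANTCA, E2F TTTCCCGC or TTTGGCGC, FOXO GTAAACA and CCAAT, with no match here, and the GC box GGGCGG, with 3. Of all windows, 1.79%, 7.81%, 1.56%, 3.65%, 37.4% and 35.7% held these motifs in the order named. Among the other members, the Cdk6 window and 1 of the Cdkn2c windows held 1 E-box each.
Cdk4 promoter: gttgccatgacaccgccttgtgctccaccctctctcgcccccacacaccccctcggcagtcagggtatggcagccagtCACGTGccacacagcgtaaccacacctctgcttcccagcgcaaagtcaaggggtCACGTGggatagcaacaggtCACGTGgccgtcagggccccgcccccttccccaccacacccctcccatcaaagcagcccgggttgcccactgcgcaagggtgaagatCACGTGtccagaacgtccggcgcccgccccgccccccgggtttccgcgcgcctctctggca
Myc fell 1.48-fold, with 106 ± 1.46 CPM in miR-423-5p cells and 156 ± 7.34 CPM in control cells (SD, n = 3; edgeR adjusted p = 0.00274), while Mycn rose 1.89-fold at a far lower level, with 6.87 ± 0.838 CPM and 3.63 ± 0.627 CPM (edgeR adjusted p = 0.0187). These genes were singled out after their values were seen. Cdk4 itself was not called, and a link of Myc or Mycn to Cdk4 through the E-boxes shown was not tested.

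Cdkn2b encodes the INK4 protein p15, known as a gene that TGF-beta induces, at chr4:89306299-89311039 on the minus strand, next to Cdkn2a. It had 30.6, 31.1 and 28.9 CPM in miR-423-5p libraries 1, 2 and 3, against 19.8, 20.2 and 16.1 CPM in control libraries 1, 2 and 3. All miR-423-5p libraries lay above all controls, and control 3 was lowest. Cdkn2b rose 1.62-fold (log2 fold change 0.69 ± 0.12, SE; edgeR adjusted p = 0.00897, higher in 3 of 3 libraries), with a 95% interval of 1.34-fold to 1.95-fold.
Its promoter is printed because Cdkn2b was called while Cdkn2a in the same locus was not. The window (RefSeq, GRCm38.p6, chr4:89310983-89311282, minus strand) holds 1 cAMP response element TGACGTCA, in capitals, to which CREB and ATF factors bind, and 1 GC box. The other motifs searched had no match. Neither Cdkn2a window held TGACGTCA. The one at chr4:89294570-89294869 held 1 E2F match and 3 GC boxes, and the one at chr4:89282143-89282442 held 1 GC box and 1 CCAAT. Whether any of these motifs bears on the calls was not tested.
Cdkn2b promoter: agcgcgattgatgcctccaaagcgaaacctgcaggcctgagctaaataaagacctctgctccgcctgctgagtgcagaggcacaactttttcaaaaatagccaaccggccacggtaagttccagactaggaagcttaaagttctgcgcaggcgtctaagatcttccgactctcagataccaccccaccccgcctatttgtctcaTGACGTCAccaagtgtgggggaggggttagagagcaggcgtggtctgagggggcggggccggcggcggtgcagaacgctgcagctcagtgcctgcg

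Cdkn2c encodes the INK4 protein p18, at chr4:109660876-109667189 on the minus strand. It had 98.7, 105 and 87.5 CPM in miR-423-5p libraries 1, 2 and 3, against 135, 136 and 124 CPM in control libraries 1, 2 and 3. All miR-423-5p libraries lay below all controls. Cdkn2c fell by 0.44 ± 0.089 on the log2 scale (SE; edgeR adjusted p = 0.0167), which is 1.36-fold lower, and it holds no seed match in its 3' UTR. Without miR-423-5p 1, miR-423-5p 3, control 1 or control 2 the edgeR adjusted p was 0.0537, 0.0758, 0.0746 and 0.0818 in that order, with log2 fold changes of -0.45, -0.35, -0.42 and -0.41.

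Cdkn2a, which lies at chr4:89274471-89294653 on the minus strand, was the member with fewest reads. It had 9.62, 9.24 and 8.12 CPM in miR-423-5p libraries 1, 2 and 3, against 10.5, 9.08 and 8.83 CPM in control libraries 1, 2 and 3. The groups overlapped, and the gene was not called (log2 fold change -0.07 ± 0.13, SE; edgeR adjusted p = 0.747; 95% interval 0.765-fold to 1.18-fold). Its FPKM, which roughly follow library totals, did not overlap, with 5.80 to 7.15 FPKM in miR-423-5p libraries and 7.59 to 8.65 FPKM in controls.

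The INK4 genes thus moved apart: the locus neighbours Cdkn2b and Cdkn2a differed in their calls, and Cdkn2b and Cdkn2c were called in opposite directions. Their summed level was 57.2 ± 6.24 FPKM in miR-423-5p cells and 69.7 ± 2.61 FPKM in control cells (SD, n = 3). FPKM roughly follow library totals and carry no TMM scaling. With totals the median log2 fold change of all tested genes was -0.18, against -0.02 with TMM. The part of this scale in the lower INK4 sum was not tested. Cdkn2b made up 32.8%, 32.3% and 34.5% of that sum in miR-423-5p libraries 1, 2 and 3, against 19.4%, 19.9% and 17.7% in control libraries 1, 2 and 3. Cdkn2c made up 55.1% ± 1.16 in miR-423-5p cells and 69.5% ± 1.18 in control cells, and Cdkn2a 11.7% ± 0.484 and 11.5% ± 0.801 (SD, n = 3). With the shorter transcript lengths the Cdkn2b share was 18.1% ± 0.779 in miR-423-5p cells and 9.34% ± 0.627 in control cells.

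Cdkn1b, the gene of p27, lies at chr6:134920401-134925513 on the plus strand. It had 74.4, 104 and 75.1 CPM in miR-423-5p libraries 1, 2 and 3, against 89.3, 97.0 and 89.6 CPM in control libraries 1, 2 and 3. As with Ccnd2, miR-423-5p 2 was the highest of all libraries and the other two of its group the lowest. Cdkn1b was not called (log2 fold change -0.12 ± 0.14, SE; edgeR adjusted p = 0.591; 95% interval 0.739-fold to 1.15-fold). Without miR-423-5p 2 it was called, with a log2 fold change of -0.28 (edgeR adjusted p = 0.0279).

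**Figure D3:**
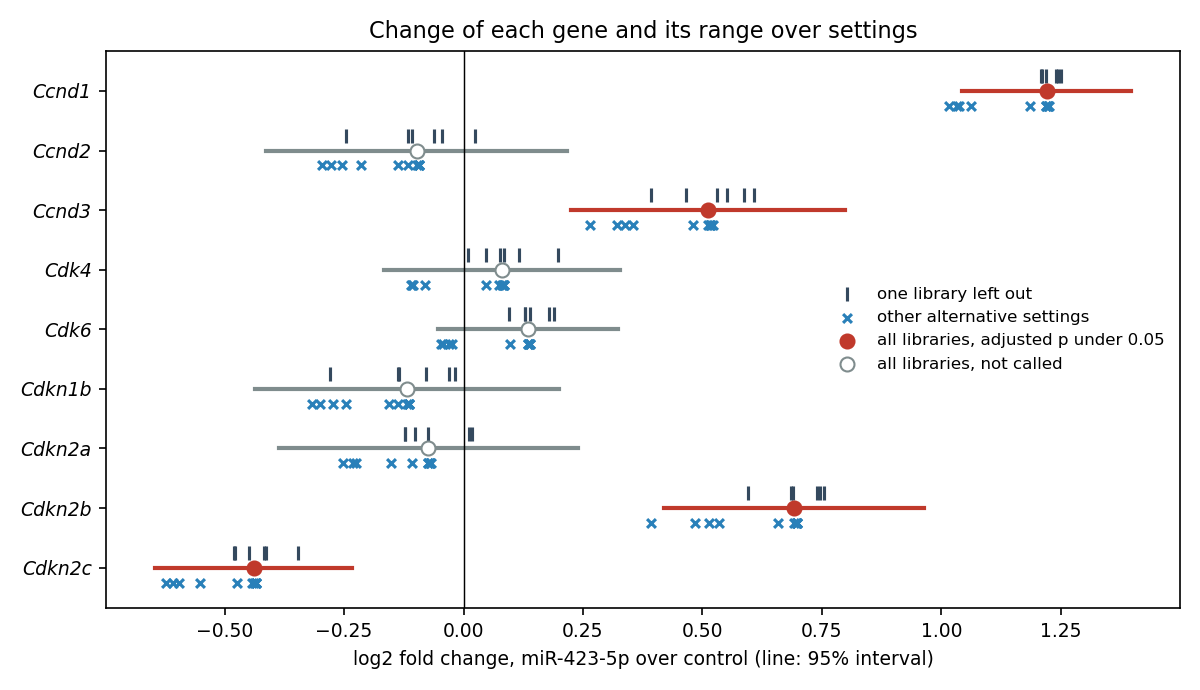
Log2 fold change (miR-423-5p over control) of each gene: circle, all libraries, filled where the edgeR adjusted p is under 0.05; line, 95% interval; ticks above, 1 library left out; crosses below, other scalings, filters and tools. Ccnd1 stays between 1.02 and 1.25 in all of them, and the crosses of Cdk4 and Cdk6 fall on both sides of 0.

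The other genes of G1 control are given as lists, described by counts beside the 9.09% of all tested genes that rose and the 7.21% that fell. Of 21 genes of the mitogen response, which growth factor signalling through ERK switches on, 8 rose and 5 fell, with a median log2 fold change of 0.43. Etv4, an ETS factor induced by that pathway, rose 2.80-fold, with 59.4 ± 7.38 CPM in miR-423-5p cells and 21.2 ± 0.564 CPM in control cells (SD, n = 3; edgeR adjusted p = 0.000815). Fosl1, an AP-1 subunit, rose 1.97-fold, the ERK phosphatase gene Dusp5 1.71-fold and Ier3 1.81-fold. Fos and Egr1, immediate early genes singled out after their values were seen, fell 4.87-fold and 1.71-fold, with Fos at 0.702 ± 0.0895 CPM in miR-423-5p cells and 3.43 ± 1.28 CPM in control cells. The list therefore held genes called in both directions. Leaving out control 1 or control 2 left 5 that rose, and leaving out either of these, miR-423-5p 1 or miR-423-5p 3 left 3 that fell.

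Of 7 genes of CDK4 folding and activation, the chaperones HSP90 and CDC37, the CDK-activating kinase and the phosphatase CDC25A, none was called with edgeR over all libraries and TMM, where 1 was higher and 1 lower at an unadjusted p under 0.05. With edgeR, 1 was called lower with library totals as the scale and 1 higher when miR-423-5p 2 was left out. DESeq2 called 1 higher, limma on log2(FPKM + 0.1) called 1 lower and limma with pseudocounts of 1 and 5 called none. Cdc37, Cdc25a, Hsp90aa1 and Hsp90ab1 had log2 fold changes of 0.29, -0.18, 0.17 and 0.12. Of 17 genes of cyclin D and p27 turnover, 1 rose and 1 fell. Cryab, a small heat shock protein gene and cofactor of the cyclin D1 ligase FBXO4, rose 1.84-fold, with 130 ± 27.1 CPM in miR-423-5p cells and 71.0 ± 9.94 CPM in control cells (SD, n = 3; edgeR adjusted p = 0.0142). Ambra1, the substrate receptor that sends D cyclins for degradation, fell 1.25-fold, with 54.5 ± 0.803 CPM in miR-423-5p cells and 68.3 ± 7.01 CPM in control cells (edgeR adjusted p = 0.0468). Leaving out any library other than miR-423-5p 2 or control 3 ended both calls, and leaving out miR-423-5p 2 gave 3 genes that rose. The number that fell was 0 with no filter on low counts or with DESeq2's size factors in edgeR, and 2 with library totals, upper-quartile scaling, DESeq2 or limma. Skp2, which targets p27, and Ddb1 were not called (log2 fold changes of -0.47 and 0.20).

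Among the CDK inhibitors outside the 9 genes, Cdkn1a, the p53 target that encodes p21, fell 1.71-fold, with 226 ± 7.45 CPM in miR-423-5p cells and 388 ± 34.5 CPM in control cells (SD, n = 3; edgeR adjusted p = 0.00199). Cdkn1c and Cdkn2d were not called (log2 fold changes of -0.98 and -0.15), and 2 of the 3 fell when control 3 was left out, when library totals were the scale and with limma. Of 20 regulators of the Ink4a/Arf locus and of p27, 5 fell with edgeR (7 lower and 1 higher at an unadjusted p under 0.05), with a median of -0.27, and over all libraries neither edgeR, DESeq2 nor limma called any higher. Mdm2, whose product degrades p53, fell 1.63-fold. The Polycomb genes Eed and Ezh2, whose complex silences the locus, fell 1.34-fold and 1.32-fold, and Kdm6b, whose product removes the mark that this complex sets, fell 1.61-fold. Leaving out control 1, control 2 or miR-423-5p 3 left 1 that fell and leaving out miR-423-5p 1 left 3, whereas 9 fell with limma and 11 when miR-423-5p 2 was left out, with 1 that rose.

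Downstream of the D cyclins, of 15 genes of the pocket proteins, E2F factors and their partners, 6 fell with edgeR (9 lower and 0 higher at an unadjusted p under 0.05), with a median log2 fold change of -0.24, and neither edgeR, DESeq2 nor limma called any higher. Tfdp1, the DNA-binding partner of E2F, fell 2.59-fold, with 43.4 ± 5.77 CPM in miR-423-5p cells and 113 ± 6.78 CPM in control cells (SD, n = 3; edgeR adjusted p = 0.000815). Mybl2, a cell cycle factor that E2F drives, fell 2.32-fold, E2f7 1.47-fold and the pocket protein gene Rbl1 1.49-fold. Of 23 S-phase genes listed as E2F targets, 8 fell with edgeR (15 lower and 1 higher at an unadjusted p under 0.05). The median of this list was -0.24, and neither edgeR, DESeq2 nor limma called any higher. Slbp fell 2.09-fold, Cdc6 1.48-fold, the ribonucleotide reductase gene Rrm2 1.37-fold and Rpa2 1.30-fold. Whether E2F controls each listed gene, Slbp among them, was not tested. Leaving out control 1, control 2, miR-423-5p 1 or miR-423-5p 3 left 3 of the pocket and E2F genes, while limma called 10, 9 and 9 lower at pseudocounts of 0.1, 1 and 5. For S phase, 2 genes were left when control 1, control 2 or miR-423-5p 3 was left out, 4 when control 3 or miR-423-5p 1 was, and 3 with no filter on low counts, against 19 with library totals as the scale and 18 with limma.

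Of 27 other cyclins and CDKs, 3 rose and 7 fell, with a median log2 fold change of -0.15. Ccne1, the gene of cyclin E1, fell 2.61-fold, with 24.8 ± 1.88 CPM in miR-423-5p cells and 64.6 ± 3.53 CPM in control cells (SD, n = 3; edgeR adjusted p = 0.000657). Ccne2 fell 2.03-fold and Ccnf 1.45-fold, while Cdk16, a kinase of the PCTAIRE family, rose 1.26-fold. Ccnd1 and the E cyclins were thus called in opposite directions in the same libraries. Leaving out control 1 left 2 that fell, control 2 or miR-423-5p 3 left 1, and miR-423-5p 1 or the filter on low counts left 3, against 11 with library totals as the scale. For the genes that rose, edgeR kept 1 when miR-423-5p 1 was left out and 0 when any control or miR-423-5p 3 was, and neither edgeR scaled to library totals nor limma called any, whereas DESeq2 called 3 and 5 were higher at an unadjusted edgeR p under 0.05.

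**Figure D4:**
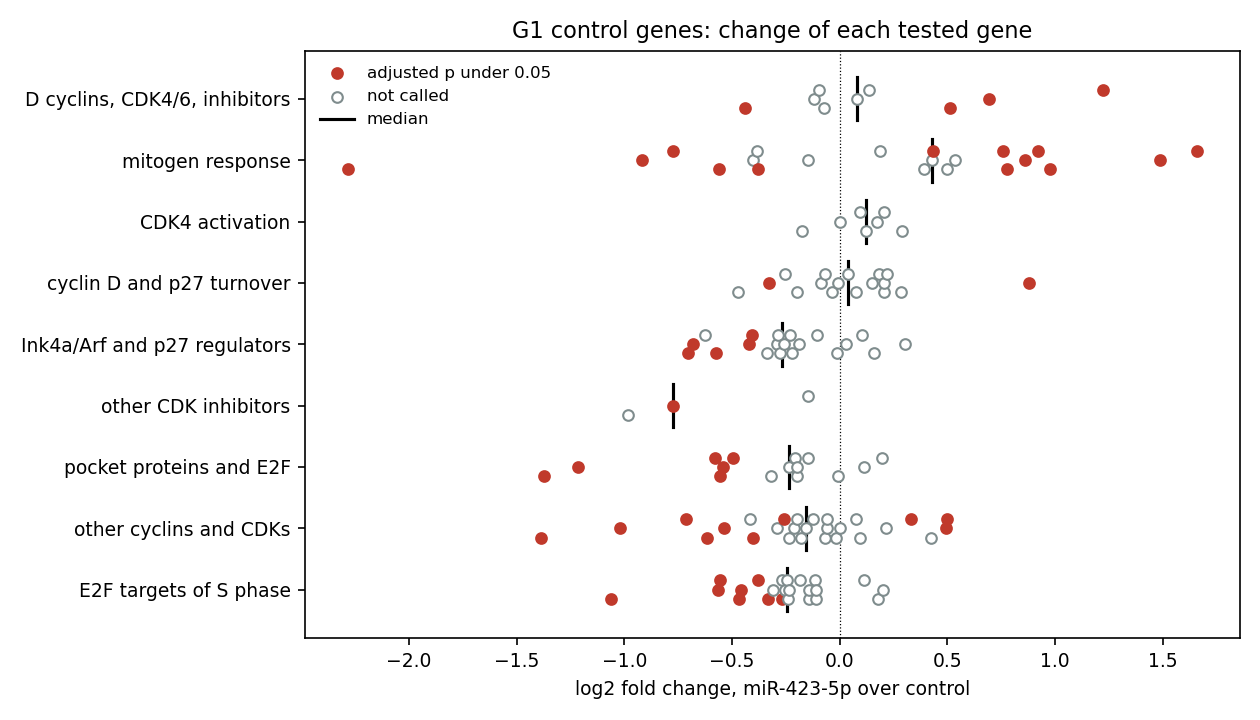
Log2 fold change (miR-423-5p over control) of every tested gene of each list; filled points have an edgeR adjusted p under 0.05, and the black bar is the median. Called genes of the E2F and S-phase lists all lie left of 0, the mitogen response list has called genes on both sides, and the 9 members run from Cdkn2c at -0.44 to Ccnd1 at 1.22.

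The genes whose profile over the 6 libraries lay closest to a member were taken among 6804 tested genes with a mean of 5 FPKM or more, by the Euclidean distance of log2 CPM centred on each gene's mean. For Ccnd1 they were Lrrc32 (distance 0.18), Ppp1r16b (0.18) and Pkn3 (0.19), with log2 fold changes of 1.13, 1.34 and 1.16. For Cdk4 they were Timm22 (0.027), Spindoc (0.047) and Rnf220 (0.070), and for Cdkn1b they were Chsy1 (0.083), Kpna4 (0.098) and Top2b (0.11), none of which was called. All these distances rest on the same 6 libraries.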

How the data were processed

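The deposited table holds whole-number read counts per gene and FPKM values per library, per the file headers. The authors' counter, strand setting and annotation release were not given in the sources used here. Overlapping genes are therefore uncertain. Cutadapt 1.9, HISAT2 2.2.1, StringTie 2.1.6, DESeq2, edgeR and the build GRCm38 are named without a role, per the submitters' processing notes. The count test was edgeR's quasi-likelihood test (version 4.0.16 in R 4.3.3, with filterByExpr and TMM) with group as the only term, adjusted by Benjamini-Hochberg over 18103 genes and called at 0.05. The SE is the log2 fold change over the square root of F. The step was also run on simulated counts drawn without an odd library, and that run is not used as support for the calls. No pair of libraries within a group agreed within sampling noise (chi-square per degree of freedom 18.2 to 98.5). Alternatives were DESeq2 1.42.0, limma 3.58.1 on log2(FPKM + 0.1, 1 or 5), other scalings, no filter, robust dispersion, a replicate block and each library left out. Named list genes were those with the smallest p, up to 4 per list. The members, lists and tests were chosen with earlier results of these data known. Sequences came from RefSeq (GRCm38.p6) and GENCODE M21; 7 of the 9 members have promoter entries, without Ccnd1 and Ccnd2. Coordinates are those of the table, equal to GENCODE M21 for 7 of the 9. One sequence match is not reported here.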

Additional observations from a re-analysis of the deposited data

How the results depend on the processing

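All 9 genes were tested under every alternative. Ccnd1, Cdkn2b and Cdkn2c were called in the same direction with DESeq2, limma, every scaling, no filter, robust dispersion and the replicate block. The call of Ccnd3 was lost with edgeR scaled to library totals (log2 fold change 0.3538), with no filter (0.5157) and with limma on log2(FPKM + 0.1, 1 or 5) (0.3378, 0.3216 and 0.2652). The uncalled Cdk4 turned negative with library totals (-0.08005) and with limma (-0.1092, -0.1085 and -0.1057), as did Cdk6 (-0.024 with library totals; -0.0461, -0.04195 and -0.02997 with limma). Across all tested genes the median log2 fold change was -0.18 with library totals and -0.02 with TMM, and FPKM roughly follow those totals. Over all genes, 1646 rose and 1305 fell; 874 and 2569 did so with library totals, 1093 and 759 with no filter, and 767 and 2459, 770 and 2389, and 753 and 2363 with limma at rising pseudocounts.

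With 1 library left out, the genes that rose ran from 570 (without control 2) to 2386 (without miR-423-5p 2) and those that fell from 372 to 1836. The members called ran from 2 to 5, those that rose from 2 to 3 and those that fell from 0 to 2. Log2 fold changes ran from 1.208 to 1.251 for Ccnd1, -0.245 to 0.02456 for Ccnd2, 0.3919 to 0.6071 for Ccnd3, 0.009134 to 0.1983 for Cdk4, 0.09541 to 0.1892 for Cdk6, -0.2799 to -0.01791 for Cdkn1b, -0.1226 to 0.018 for Cdkn2a, 0.5947 to 0.7535 for Cdkn2b and -0.4808 to -0.3472 for Cdkn2c. Ccnd2 turned positive without miR-423-5p 1 (0.02456), and Cdkn2a without miR-423-5p 3 (0.018) or control 1 (0.01102). The cause was not tested, other than that fewer libraries enter these fits.

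Same-numbered libraries deviated together with correlations of 0.133, 0.0126 and 0.0835 for numbers 1, 2 and 3. Libraries of unlike number had correlations from -0.135 to 0.0699. All of these are small, and they cannot tell whether the numbers mark pairs. A replicate block gave 1369 genes that rose and 1042 that fell, kept the 4 members' calls (Ccnd1 1.22, Ccnd3 0.5219) and gave 5 in place of 8 S-phase genes that fell.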
